A study of Mus musculus with 3 samples.

Results

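Sarcolipin (Sln) and 9 further genes of sarcoplasmic reticulum calcium handling were measured in mouse gastrocnemius muscle. They are 10 of the 18193 genes read on the arrays, which were kept without a filter for detection. They comprise the calcium pumps Atp2a1 and Atp2a2, the pump inhibitors Sln and Pln, the release channel Ryr1, the calcium buffers Casq1, Casq2 and Pvalb, and the junction proteins Jph1 and Jph2. The genes were selected on signals of these same arrays, and sarcolipin leads the list because of its values here, so every ratio below is a description and was given no test. The muscle came from male C57BL/6J mice of the HF+SFC group (60% kcal fat, to which 0.023% by weight of SFC, the iron salt sodium ferrous citrate, was added), the HF group (60% kcal fat, D12492) and the Control group (10% kcal fat, D12450B). Feeding started at 6 weeks of age and lasted 15 weeks, which differs from the age of 21 months in the labels. Each group was hybridised once, as a mix of all its samples, to an Affymetrix GeneChip mouse array, 3 arrays in all, so that no spread between mice is known. No group received SFC without the high-fat diet, and the number of mice in a mix was not given in the sources used here.

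In a muscle fibre, the voltage sensor of the surface membrane opens the ryanodine receptor of the sarcoplasmic reticulum, calcium flows out and the fibre contracts. SERCA pumps then return the calcium at the cost of ATP. Sarcolipin and phospholamban are short membrane proteins that bind the pump, and sarcolipin lets the pump split ATP without moving calcium, which releases heat. Calsequestrins hold calcium inside the reticulum, parvalbumin binds it in the cytosol of fast fibres, and junctophilins tie the reticulum to the surface membrane. Fast fibres use SERCA1 (Atp2a1), whereas slow fibres and the heart use SERCA2 (Atp2a2).

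For HF over Control the log2 ratio was 0.62 for Casq2 and only -0.16 for the fast fibre pump Atp2a1. The 153 other genes within 2-fold of the Atp2a1 signal had a median of -0.07. The upstream stretches of these 2 genes, Atp2a1 and Casq2, are shown because their ratios had opposite signs. Each is the 250 bases before the RefSeq start of the gene (GRCm38.p6), read 5′ to 3′ on the gene's strand, with E-boxes (CANNTG, the same on both strands) in capitals. An E-box is the motif of myogenic factors such as MyoD, and MEF2 is a factor that acts with them. That of Atp2a1 lies at chr7:126463074-126463323 on the minus strand and that of Casq2 at chr3:102086165-102086414 on the plus strand.
Atp2a1: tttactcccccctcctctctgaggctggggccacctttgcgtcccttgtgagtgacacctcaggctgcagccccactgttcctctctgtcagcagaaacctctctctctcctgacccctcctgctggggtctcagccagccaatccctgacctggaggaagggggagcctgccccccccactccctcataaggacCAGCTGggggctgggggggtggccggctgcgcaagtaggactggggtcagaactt
Casq2: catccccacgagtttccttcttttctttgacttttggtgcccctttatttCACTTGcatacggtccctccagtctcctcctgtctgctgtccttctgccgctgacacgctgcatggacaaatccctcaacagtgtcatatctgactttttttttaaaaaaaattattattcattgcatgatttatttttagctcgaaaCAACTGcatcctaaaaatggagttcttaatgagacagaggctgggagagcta
The Atp2a1 stretch held 1 E-box, of the form CAGCTG and starting 55 bases before the start, and the Casq2 stretch held 2, starting 200 and 52 bases before it. A MEF2 motif, searched by its name in its usual 10-base form that reads alike on both strands, was present for Casq2 and absent for Atp2a1. The table matched 7 of the 10 genes (all but Sln, Atp2a2 and Jph1) with 9 upstream stretches, of which 7 held an E-box, 4 the form CAGCTG and 2 a MEF2 motif. The 2 stretches of Jph2 overlap by 230 bases and hold the same CAGCTG, which is counted in both. Over 32851 stretches of the same length, 66.2% held an E-box, 13.0% the form CAGCTG and 2.92% a MEF2 motif. A match of letters is no evidence of binding.

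Sarcolipin had the lowest ratio of the 10 genes for HF over Control and the highest for HF+SFC over HF. Its brightest probe set (a group of short probes against 1 transcript) had a signal of 606 in HF+SFC, 307 in HF and 732 in Control, in MAS5 units on a linear scale. The HF array thus stood low and the other 2 arrays lay closer together. The log2 ratio was -1.25 (0.419-fold) for HF over Control, 0.98 (1.97-fold) for HF+SFC over HF and -0.27 (0.828-fold) for HF+SFC over Control. The second probe set of Sln read 50.6 in HF+SFC, 8.32 in HF and 6.31 in Control. These readings lie below the array medians of 68.03 for HF+SFC, 67.39 for HF and 63.63 for Control, and they do not share the low value in HF. The brightest probe set therefore stands alone for this gene, and averaging both turned the log2 ratio of HF+SFC over Control to 1.36.

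Genes of similar signal give the scale of these ratios. Of 3874 other genes within 2-fold of its mean signal, 1.96% passed 1.5-fold downward for HF over Control and 1.03% passed it upward for HF+SFC over HF. Those genes had a median log2 ratio of -0.03 for HF over Control, with 5% below -0.44, and 4 of them were as low as Sln, while 3 were as high as Sln for HF+SFC over HF. Both ratios of Sln use the HF array, so a single low reading there would enter both. The ratio of HF+SFC to Control does not use it, and lies within 1.5-fold.

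Phospholamban (Pln), the pump inhibitor best known from the heart, did not follow sarcolipin. Its brightest probe set read 203 in HF+SFC, 154 in HF and 142 in Control, highest in HF+SFC and close together in the other 2 groups. The second probe set, almost as bright, read 163, 174 and 148 in the same order, and the third read 95.9, 112 and 120. The 3 probe sets had log2 ratios of 0.40, -0.10 and -0.23 for HF+SFC over HF and of 0.11, 0.23 and -0.10 for HF over Control. No direction was shared by all of them in either comparison. Myoregulin (Mrln), another small pump inhibitor of skeletal muscle and no member of the 10, named here after its values were seen, had a signal of 5187 in HF+SFC, 4584 in HF and 5393 in Control. Its log2 ratio of -0.23 for HF over Control had the sign of that of Sln and a smaller size.

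**Figure D1:**
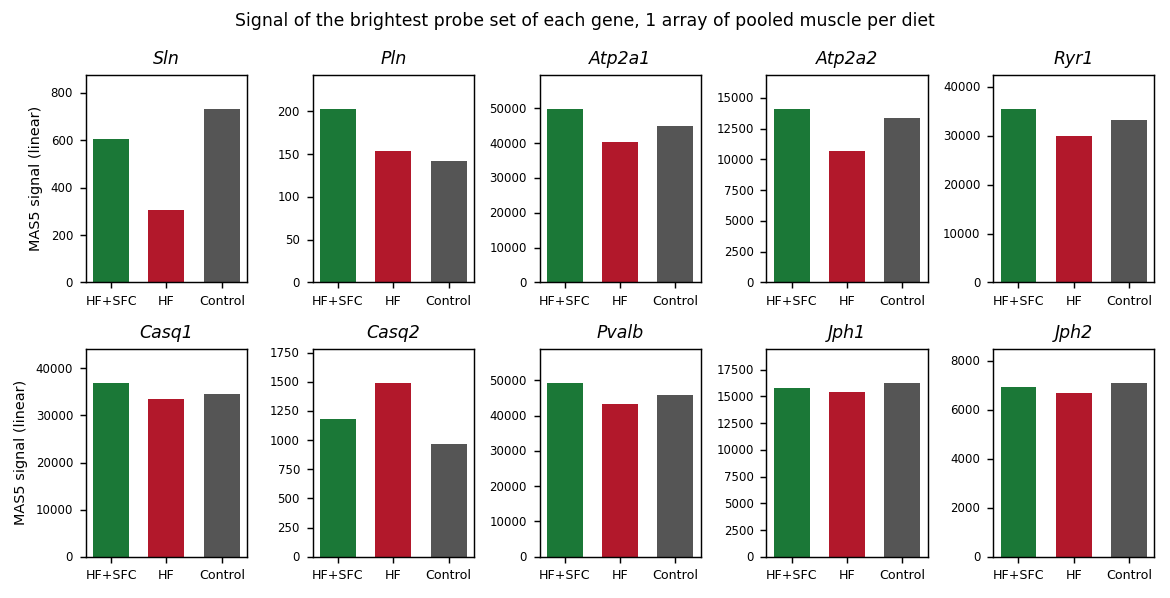
Signal of the brightest probe set of each of the 10 genes (MAS5 units, linear axis from 0, a separate scale per gene) on the HF+SFC, HF and Control arrays, 1 array of pooled muscle per bar. Sln is lowest in HF, at 307, and Casq2 is highest there, at 1486.

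Both calcium pumps had their lowest signal in HF, and the slow fibre pump differed more. Atp2a2 read 14087 in HF+SFC, 10674 in HF and 13395 in Control, with log2 ratios of -0.33 for HF over Control and 0.40 for HF+SFC over HF. HF+SFC and Control differed by 1.05-fold. Of its 5 dimmer probe sets, those at 4049, 2959 and 3924, at 1745, 1491 and 1735, and at 136, 97.5 and 129 in HF+SFC, HF and Control were all lowest in HF. The last 2 lay below the array medians, at 60.2, 28.3 and 22.7 and at 7.28, 5.19 and 9.05. For HF+SFC over HF all 6 probe sets had ratios above 1, and for HF over Control 5 of 6 had ratios below 1. At the signal of Atp2a2, 702 other genes had a median log2 ratio of -0.03 for HF over Control and 0.04 for HF+SFC over HF.

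Atp2a1 had a signal of 49738 in HF+SFC, 40211 in HF and 45050 in Control on its only probe set. Its log2 ratio was -0.16 for HF over Control and 0.31 for HF+SFC over HF, so neither pump reached 1.5-fold. The brightest genes of the arrays leaned the same way. The 153 other genes within 2-fold of the Atp2a1 signal had medians of -0.07 and 0.13 for these ratios. After quantile normalization, which makes the 3 signal distributions equal, the ratios of Atp2a1 were -0.08 and 0.11, against -0.33 and 0.38 for Atp2a2.

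Ryr1, the calcium release channel of skeletal muscle, had a signal of 35457 in HF+SFC, 30049 in HF and 33256 in Control. Its second probe set read 14937, 11367 and 12236 in the same order. Both probe sets were thus lowest in HF and highest in HF+SFC. The log2 ratios of the brighter one were -0.15 for HF over Control and 0.24 for HF+SFC over HF, where the 273 genes of similar signal had medians of -0.07 and 0.11.

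The buffers split, since cardiac calsequestrin went against sarcolipin and SERCA2. Casq2, the calsequestrin of heart and slow fibres, had a signal of 1181 in HF+SFC, 1486 in HF and 965 in Control, highest in HF. Its log2 ratio was 0.62 (1.54-fold) for HF over Control and -0.33 (0.795-fold) for HF+SFC over HF. Of 3378 other genes within 2-fold of its signal, 1.51% passed 1.5-fold upward for HF over Control. Casq2 rests on 1 probe set, of a kind that can bind several transcripts, so no second reading was to be had. With arrays centred on their medians its log2 ratio was 0.55, below the 0.58 that 1.5-fold requires.

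Casq1, the other calsequestrin, had a signal of 36788 in HF+SFC, 33593 in HF and 34539 in Control. Pvalb, the cytosolic buffer of fast fibres, had 49099, 43274 and 45708 in the same order. The log2 ratio of Casq1 for HF over Control was -0.04, which turned to 0.04 after quantile normalization, and that of Pvalb was -0.08. For HF+SFC over HF the ratios were 0.13 for Casq1 and 0.18 for Pvalb, and both turned to -0.03 after quantile normalization, so the order of HF+SFC and HF depends on the scaling here.

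The junction proteins differed little between the 3 arrays. Jph1 read 15820 in HF+SFC, 15411 in HF and 16209 in Control, and Jph2, the form also found in heart, read 6941, 6686 and 7076. Their log2 ratios lay between -0.08 and 0.05 in the 3 comparisons. The dimmer probe set of each gene had the opposite sign for HF over Control, with 0.02 for Jph1 and 0.11 for Jph2. The Jph1 ratio for HF+SFC over HF, 0.04, turned to -0.0049 after quantile normalization.

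**Figure D2:**
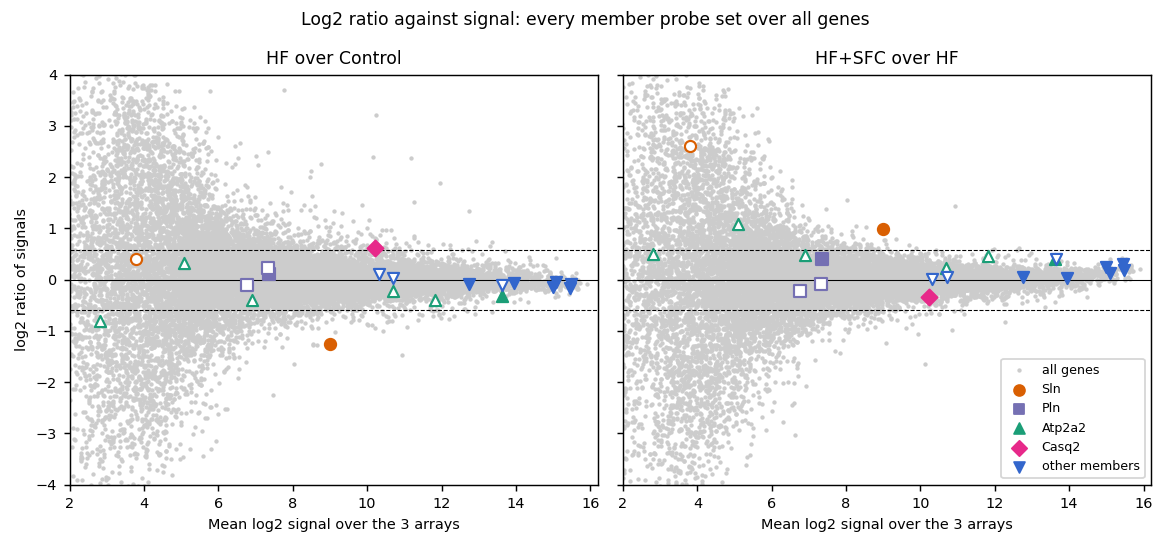
Log2 ratio of the signals against the mean log2 signal over the 3 arrays for HF over Control (left) and HF+SFC over HF (right). Grey points are the brightest probe sets of all genes, coloured symbols the 21 probe sets of the 10 genes (filled, brightest; open, others), dashed lines 1.5-fold, and points beyond a log2 ratio of 4 are not drawn. Sln on its brightest probe set lies outside the dashed lines in both panels, at -1.25 and 0.98, and its dim probe set, at 0.40 and 2.60, sits where the grey points spread widely.

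Counted together for HF over Control, 8 of the 10 genes were lower and 2 higher (3 higher after quantile normalization). Their median log2 ratio was -0.08, against 0.01 for all genes and -0.03 for genes above the 75th percentile of signal. Sln passed 1.5-fold downward (1 of 10, against 12.2% of all genes and 1.87% of the 9096 genes above the median signal, where all 10 lie) and Casq2 upward (1 of 10, against 17.0% and 2.67%). Against HF, 9 in HF+SFC were higher and 1 lower, with a median of 0.21 (all genes 0.01, bright genes 0.02), and after quantile normalization 6 were higher and the median was 0.08. In that comparison Sln alone passed 1.5-fold upward (13.7% of all genes and 0.945% of those above the median signal did) and 0 passed it downward (13.5% and 1.43% did). Against Control, 7 in HF+SFC were higher and 3 lower (6 higher after quantile normalization, and 10 with the probe sets of each gene averaged, where Sln, Jph1 and Jph2 turned), with a median of 0.09 (all genes 0.02). Here 0 passed 1.5-fold in either direction, against 16.5% of all genes upward and 12.4% downward, and 1.91% and 1.78% of those above the median signal. As the 10 genes were selected on these signals, the counts are a description. The comparisons share arrays, so their values are not independent of each other.

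Markers of slow fibres followed the direction of Sln and Atp2a2. All 8 had log2 ratios below 0 for HF over Control, also after quantile normalization or centring, with a median of -0.49 and a lowest value of -0.61 for Tpm3. Against HF, 7 of 8 were higher in HF+SFC (8 of 8 after quantile normalization or centring), with a median of 0.40 and a highest value of 0.57 for Tnnc1. Myh7, the slow myosin heavy chain, read 8490 in HF+SFC, 6099 in HF and 8784 in Control. The summed signal of the slow markers was 73662, 57110 and 78471 in the same order, and none of them was below the median of every array. Sln lay outside the range of the slow markers in both comparisons, Atp2a2 inside it, and Casq2 had the opposite sign.

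Fast fibre markers differed less, and their order depends in part on the scaling. All 10 had a lower signal in HF, by a median log2 ratio of -0.13 for HF over Control and 0.21 for HF+SFC over HF. Centring and the offset kept these directions for all 10. After quantile normalization 7 were lower and 2 higher for HF over Control (median -0.05). For HF+SFC over HF 5 were then higher and 2 lower (median 0.01), and the rest had a ratio of 0. Quantile normalization sets values by rank, so a probe set of equal rank on 2 arrays gets a ratio of 0. Their summed signals were 506174 in HF+SFC, 432656 in HF and 472706 in Control. Myh4 read 51107, 44594 and 49066, and the type 2A myosin Myh2 38417, 32879 and 35478. The part of fibre makeup in the values of Sln and the pumps was not tested. In whole muscle, fewer fibres of a type and less RNA per fibre cannot be told apart.

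Markers of other cells also differed between the arrays. The 5 measured of 7 adipocyte markers summed to 4639 in HF+SFC, 6979 in HF and 1642 in Control, with Adipoq at 2915, 4637 and 901. The 6 fibroblast and matrix markers summed to 38204, 38595 and 30490, with Col1a1 at 1335, 1883 and 968. All 5 adipocyte, all 6 fibroblast and all 6 leukocyte markers had ratios above 1 for HF over Control (4 of 6 fibroblast markers after centring), with median log2 ratios of 2.12, 0.50 and 0.37 (0.22 to 0.68 for leukocytes over the alternatives). For HF+SFC over HF the median was -0.61 for adipocytes, and over the alternatives it lay between -0.13 and -0.03 for fibroblasts and between -0.05 and 0.09 for leukocytes. The leukocyte markers summed to 1579 in HF+SFC, 1585 in HF and 1264 in Control (Ptprc at 161, 159.9 and 119). Of them Cd3e and Cd79a lay below the median of every array, and the leukocyte median of 0.68 is the value of Cd3e. The 6 smooth muscle markers summed to 12986, 15033 and 13689 (Myh11 at 850.3, 876 and 813), 4 of them higher for HF over Control (median -0.08 to 0.11 over the alternatives) and 1 for HF+SFC over HF (-0.26 to -0.17). The 5 endothelial markers summed to 3968, 3924 and 3928 (Pecam1 at 787, 872 and 791), with 3 higher in each comparison and medians of -0.05 to 0.14 and 0.0090 to 0.09. Of the markers of developing, regenerating or denervated muscle, 11 of 12 were measured and summed to 3514, 3548 and 3607 (Myh3 at 251, 122 and 109), with 6 and 5 higher and medians of -0.17 to 0.10 and -0.12 to 0.04. Of 4 erythroid markers 2 were measured and summed to 153, 165 and 143 (Hba-a1 at 49.7, 4.58 and 1.47, below the array medians). None of these defining markers was at 0. For the heart atrium, where mouse Sln is abundant, the 7 markers summed to 1473, 1207 and 1273, and 5 of them lay below the median of every array, so no median of their ratios is given. Its defining marker Myl7 was one of these, at 36.9, 50.5 and 35.0. Most of the atrium sum came from Myl4 alone, at 1188 in HF+SFC, 954 in HF and 975 in Control. RNA integrity was read from control probe sets at both ends of a transcript, whose 3'/5' ratio for beta-actin was 1.15 in HF+SFC, 1.52 in HF and 1.09 in Control, and that for Gapdh was 0.820, 0.832 and 0.842. The part of these cells and of RNA integrity in the values above was not tested.

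Other genes of calcium handling were read from a list of 79, of which 70 were measured. For HF over Control, 38 were higher and 32 lower (median log2 ratio 0.01), and 3 passed 1.5-fold upward and 3 downward (17.0% and 12.2% of all genes did). For HF+SFC over HF, 43 were higher and 27 lower (0.06), with 4 and 0 past 1.5-fold (13.7% and 13.5% of all genes). For HF+SFC over Control, 46 were higher and 24 lower (0.05), with 5 and 0 (16.5% and 12.4%). Among the 59 genes above the median signal, 2 passed 1.5-fold in any comparison, both lower in HF than in Control, a direction in which 1.87% of all genes above that signal passed. They were Itpr2, an IP3 receptor that releases calcium from internal stores, and Myoz2 (calsarcin-1), which tethers calcineurin at the Z-disc of slow fibres and heart.

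Itpr2 read 226 in HF+SFC, 152 in HF and 265 in Control on its brightest probe set, which had the order of Sln. Its log2 ratios were -0.80 for HF over Control and 0.57 for HF+SFC over HF. The next brightest probe set had 118, 142 and 168, with HF+SFC lowest. Both are of a kind that can bind several transcripts. The third brightest read 86.1 in HF+SFC, 101.0 in HF and 100.9 in Control, without the order of Sln. Myoz2 read 7006, 6409 and 10173 on its only probe set, with log2 ratios of -0.67 for HF over Control, 0.13 for HF+SFC over HF and -0.54 for HF+SFC over Control. It was low in both high-fat groups, whereas Sln was low in HF.

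Above the median signal, the highest genes for HF over Control were Camk2d, a calcium and calmodulin dependent kinase, at 1550, 2019 and 1430 in HF+SFC, HF and Control, and Hsp90b1, a chaperone of the reticulum lumen, at 4818, 6042 and 4498. Both had the order of Casq2, highest in HF. Their log2 ratios were 0.50 and 0.43 for HF over Control and -0.38 and -0.33 for HF+SFC over HF. The next brightest probe sets gave 0.02 for Camk2d and 0.07 for Hsp90b1 in HF over Control. The 7 genes of lumen calcium binding had a median of 0.22 in that comparison, with 6 of 7 higher (4 of 7 after centring), and of 0.05 over the 4 genes left on probe sets particular to 1 transcript.

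Slc8a3, a sodium and calcium exchanger of the surface membrane, read 2022 in HF+SFC, 1478 in HF and 1798 in Control, a log2 ratio of 0.45 for HF+SFC over HF. Its second probe set gave 0.39. Rcan1, an inhibitor of calcineurin, read 4170.1, 5842 and 5230 in the same order and was lowest in HF+SFC, with a log2 ratio of -0.49 for HF+SFC over HF and -0.42 on its second probe set. Above the median signal, the highest ratios of the list for HF+SFC over Control were those of Rcn1, a calcium-binding protein of the reticulum lumen (450.4 and 325, log2 ratio 0.47), and Selenon, a selenoprotein linked to ryanodine receptor function (201 and 158, 0.35), and the lowest were those of Myoz2 and of Rcan1 (-0.33).

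The other groups of the list had medians that lay near 0 and turned sign with the processing in most cases. Over the main setting and 6 alternatives, the median for HF over Control lay between -0.09 and 0.02 for the 5 voltage sensor genes, between -0.08 and 0.08 for the 20 triad and release genes, and between -0.14 and 0.02 for the 9 other pumps and pump regulators. For HF+SFC over HF these medians lay between -0.02 and 0.09 for the voltage sensor, 0.03 and 0.14 for triad and release, and -0.08 and 0.18 for other pumps. The 7 genes of store-operated entry and IP3 receptors had medians between -0.03 and 0.04 for HF over Control and between -0.02 and 0.21 for HF+SFC over HF. The 16 calcineurin and CaM kinase genes had -0.11 to -0.0063 and 0.03 to 0.09 in the same comparisons, the 6 genes of mitochondrial calcium uptake -0.07 to 0.05 and -0.04 to 0.07, and lumen calcium binding 0.05 to 0.25 and -0.21 to 0.04.

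**Figure D3:**
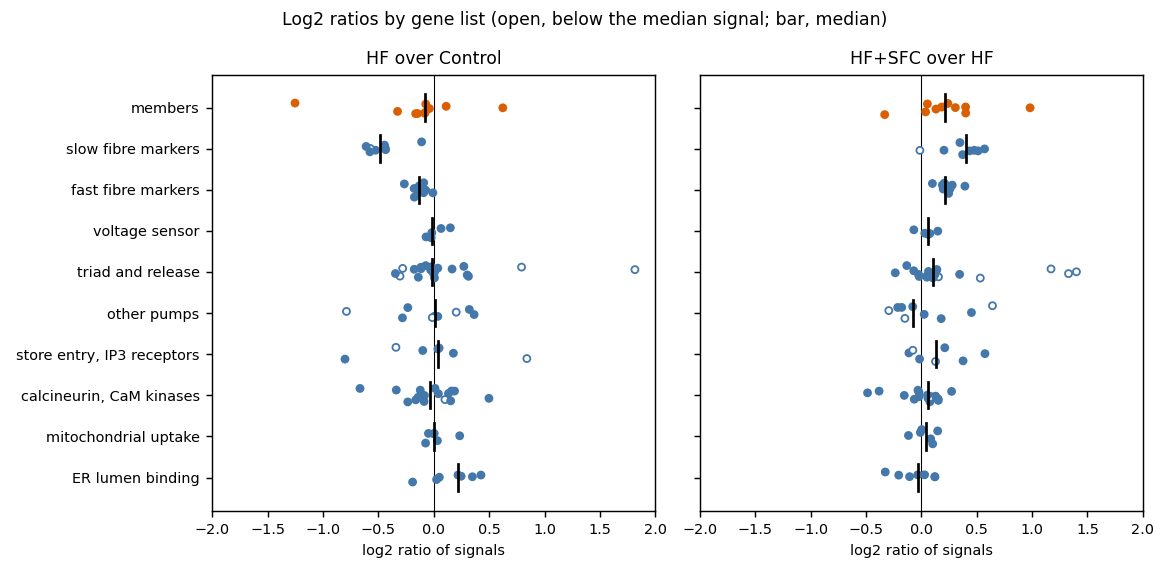
Log2 ratio of each gene (brightest probe set; open circles, below the median signal of all genes) by list for HF over Control (left) and HF+SFC over HF (right), with the median of each list as a bar. The slow fibre medians lie at -0.49 and 0.40, and Sln is the lowest member on the left and the highest on the right.

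The 5 genes closest to Sln in both ratios, by Euclidean distance over the 3 arrays among 4548 genes above the 75th percentile of signal, were Polr3k (0.50), Abcf3 (0.60), Atf7ip (0.63), Timm44 (0.69) and Gpx3 (0.73). None was a calcium gene of the lists. Polr3k read 2697 in HF+SFC, 1003 in HF and 2779 in Control, but its next brightest probe set read 1118, 1048 and 1102. Gpx3, a secreted glutathione peroxidase, read 5525, 3951 and 6501 on its only probe set. The other 3 had log2 ratios between -0.89 and -0.70 for HF over Control and between 0.50 and 0.57 for HF+SFC over HF, smaller than those of Sln. On the next brightest probe sets these ratios were -0.45 and 0.58 for Abcf3, -0.10 and 0.10 for Atf7ip and -0.27 and 0.15 for Timm44. The third probe set of Abcf3, below the array medians, had the opposite signs, at 0.07 and -0.40. The brightest probe sets of Polr3k and Timm44 are of a kind that can bind several transcripts.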

How the data were processed

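For the HF+SFC, HF and Control groups, cDNA made from gastrocnemius total RNA was pooled and hybridised as 1 mix per group. The values, intensities of 45101 probe sets, were deposited by the authors in linear MAS5 units (a program that the submitters' processing notes name with no version). Leaving out 2% at each end, their mean was 500.004 on all 3 arrays. Probe sets with 1 gene symbol (34945) were named through the platform annotation, with symbols updated by gene ID for 34741 through RefSeq (GRCm38.p6). Log2 ratios used the brightest probe set (highest mean log2 signal) of each of 18193 genes, with no offset, and 1.5-fold is the threshold of the study. With 1 array per group no test was run, and the number of arrays limits the precision. Members and gene lists were chosen with earlier results of these data known. Genes named outside the members were the 2 highest and 2 lowest ratios of the calcium list in each comparison above the median signal, the first marker of each reported list and the 5 genes nearest to Sln. Signal bands of 2-fold, the named extremes of marker lists, the naming of Cd3e, Cd79a and Myl4, and the rescaled list counts were chosen after seeing the data. Alternatives were all probe sets averaged, quantile normalization, centring on array medians, an offset of 50, leaving out probe sets not particular to 1 transcript, a filter at the median signal, a 2-fold threshold and counting any probe set. The steps were tested on simulated data. Python 3.11.15, numpy 2.4.6, pandas 2.3.3 and matplotlib 3.10.9 were used.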

Additional observations from a re-analysis of the deposited data

How the results depend on the processing

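The log2 ratio of Sln kept its sign and moved by less than 0.25 under quantile normalization, centring and the offset. The low-signal filter and leaving out probe sets not particular to 1 transcript kept the brightest probe set of Sln, so they could not move its ratio. When its 2 probe sets were averaged it was -0.43 for HF over Control, 1.79 for HF+SFC over HF and 1.36 for HF+SFC over Control, since the dim probe set then counts as much as the bright one. The count of members at least 1.5-fold higher in HF than in Control was 0 in place of 1 with centring, with a 2-fold threshold and on probe sets particular to 1 transcript, which left Casq2 with no value. That of members lower in HF was 0 with averaged probe sets and 2 with any probe set. In HF+SFC over HF the count of higher members was 0 at 2-fold and 2 with any probe set, and in HF+SFC over Control it was 1 with averaged probe sets and 2 with any probe set. The added calls came from probe sets of Atp2a2 and Sln that lay below the array medians. No share of all genes was computed under these rules, so the counts have nothing to stand beside. Of 159 recomputed ratios of the other members, 156 moved by less than 0.25 on the same side of 1.5-fold. The remaining 3 moved more or changed side (Pln with averaged probe sets in HF+SFC over HF and over Control, Casq2 with centring). Past 1.5-fold 0 turned their sign, which could apply only to Casq2 in HF over Control. Among the 156, signs did turn for Jph1 and Jph2 with averaged probe sets, and for Casq1, Jph1 and Pvalb after quantile normalization. Those ratios were below 0.25 in size, so a limit of 0.25 says little about their sign. Many of the 156 could not move. The low-signal filter and leaving out probe sets not particular to 1 transcript repeat the main value of every member they keep. Averaging does so for the 4 members with 1 probe set. No paired analysis was possible because each group had 1 array. The depth of arrays is signal over background, and probe sets below the array medians carry little of it.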
